A study of Mus musculus with 214 samples.

Results

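The guanylate binding proteins (GBPs) were followed in mouse liver after early-life N-nitrosodimethylamine (NDMA). Their 10 transcripts, Gbp2, Gbp3, Gbp4, Gbp5, Gbp6, Gbp7, Gbp8, Gbp9, Gbp10 and Gbp11, were taken by gene symbol and not by a cut on measured values. The family was, however, chosen with earlier results of these data known. All 10 were present among the 18647 genes listed for wild-type (WT) liver and the 19540 genes listed for Mgmt-/- liver. Levels are given as normalized counts, meaning reads per gene divided by a size factor of the library.

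Both groups of C57BL/6 mice carried RaDR+/+ (a recombination reporter) and GPT+/+ (a mutation reporter), and the Mgmt-/- group also lacked O6-methylguanine-DNA methyltransferase. NDMA, a methylating agent, was injected at 3.5 mg/kg on postnatal day 8 and at 7 mg/kg on postnatal day 15. Controls of both genotypes received saline on the same days. Livers of both sexes were taken after the second injection at 5 times (1 day, 2 days, 5 days, 10 weeks and 10 months), and RNA was measured with 3' digital gene expression libraries.

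In Mgmt-/- liver the NDMA and saline groups held 12 and 12 mice at 1 day, 8 and 7 at 2 days, 8 and 6 at 5 days, 8 and 8 at 10 weeks and 13 and 12 at 10 months. In WT liver they held 26 and 21, 8 and 8, 8 and 7, 8 and 8, and 13 and 10 mice at the same times. Recovered depth ran from 713584 to 7740710 reads per library in Mgmt-/- liver and from 150038 to 4791649 in WT liver. Treatment was assigned by whole litter, and the labels do not name the litters, so litter and treatment cannot be told apart.

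The tissue and genotype labels were checked before the comparisons. Mgmt ranged from 13.0 to 130 normalized counts in the 117 WT libraries and from 0 to 9.67 in the 94 Mgmt-/- libraries used. The libraries used held abundant albumin (Alb) or transthyretin (Ttr), which mark hepatocytes. A pair of Mgmt-/- saline libraries of day 5 held kidney androgen-regulated protein (Kap) at 6147 and 7562 normalized counts, with kidney markers averaging 4432 and 4983, and were left out. In 2 WT NDMA libraries of day 1 the sex genes went against the labelled sex, and the number of members called there was 7 with them and 7 without them.

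GBPs are large GTPases that interferons induce strongly in immune and non-immune cells. They assemble on membranes of intracellular bacteria and parasite vacuoles, where they recruit further effectors and can help activate caspases of the inflammasome. The immunity-related GTPases (IRGs) share this induction, and the ATG8 conjugation machinery of autophagy helps place both families on their target membranes. IRF1 is a transcription factor that carries the interferon signal to GBP genes.

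The mouse GBP genes lie in clusters on chromosomes 3 and 5 (GRCm38, GENCODE vM21). Gbp5, Gbp7, Gbp3 and Gbp2 fall within chr3:142493978-142638008 on the plus strand. The other 6 members fall within chr5:105014150-105346472 on the minus strand, and the annotated spans of Gbp4, Gbp8 and Gbp9 overlap one another. Gbp11 is annotated as a polymorphic pseudogene.

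Sequence similarity limits how reads can be assigned to single members. Of all 50-base windows in the last 500 bases of the Gbp10 transcripts, 94.5% were also found in Gbp6 transcripts. The share of such windows found in another family member was 42.3% for Gbp6, 16.3% for Gbp11 and 14.2% for Gbp4. It was at most 7.29% for each of the other 6 members. Values of Gbp6 and Gbp10 are therefore uncertain as values of single genes.

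Promoters were available for 4 of the 10 members, and these 4, all of the chromosome 3 cluster, are shown. Each sequence runs from 250 bases before to 50 bases after the annotated start (RefSeq, GRCm38.p6, plus strand). Capitals mark the letters GAAANNGAA on either strand (TTCNNTTTC when read on the strand shown), a core of the interferon-stimulated response element (ISRE).
Gbp2, chr3:142620413-142620712: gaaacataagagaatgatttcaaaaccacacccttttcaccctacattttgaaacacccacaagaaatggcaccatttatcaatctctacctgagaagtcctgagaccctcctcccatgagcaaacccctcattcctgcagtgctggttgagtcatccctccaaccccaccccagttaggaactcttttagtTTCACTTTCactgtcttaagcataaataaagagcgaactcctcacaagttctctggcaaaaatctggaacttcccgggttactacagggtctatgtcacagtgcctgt
Gbp3, chr3:142559794-142560093: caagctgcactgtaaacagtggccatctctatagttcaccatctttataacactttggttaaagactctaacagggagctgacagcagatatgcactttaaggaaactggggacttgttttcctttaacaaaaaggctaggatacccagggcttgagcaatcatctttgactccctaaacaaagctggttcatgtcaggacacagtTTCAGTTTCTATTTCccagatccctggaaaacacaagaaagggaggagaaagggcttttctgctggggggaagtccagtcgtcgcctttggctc
Gbp5, chr3:142496684-142496983: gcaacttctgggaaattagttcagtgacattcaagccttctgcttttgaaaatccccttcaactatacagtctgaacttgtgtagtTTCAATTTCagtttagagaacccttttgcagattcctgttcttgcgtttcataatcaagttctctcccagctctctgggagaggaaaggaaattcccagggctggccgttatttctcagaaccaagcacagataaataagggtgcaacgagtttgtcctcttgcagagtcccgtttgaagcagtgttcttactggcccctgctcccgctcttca
Gbp7, chr3:142530086-142530385: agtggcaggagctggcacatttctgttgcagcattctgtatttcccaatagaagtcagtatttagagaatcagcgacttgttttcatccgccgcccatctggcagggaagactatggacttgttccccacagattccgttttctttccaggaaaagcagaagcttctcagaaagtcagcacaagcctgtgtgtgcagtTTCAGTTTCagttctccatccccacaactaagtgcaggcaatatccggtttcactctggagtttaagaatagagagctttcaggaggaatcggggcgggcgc

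These letters stood 58 bases before the start of Gbp2, 52 before that of Gbp7 and 164 before that of Gbp5. In Gbp3 a pair of overlapping matches stood 44 and 38 bases before the first annotated start, and the promoter of a second Gbp3 start held none. Among all 32851 promoters of this length, 8.56% held the letters on either strand. The interferon-gamma activated site, TTCNNNGAA, which can share bases with the first motif and reads alike on both strands, was found in Gbp5 and Gbp7 (2 matches each) and in 8.3% of all promoters. A match describes the letters and not a bound site.

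The first question was how the family responded to NDMA where Mgmt was absent. In Mgmt-/- liver the response was broad and early. Of the 9 members with a mean of at least 5 normalized counts, 8 were higher 1 day after NDMA, all 10 members were higher at 2 days, and all 9 tested were higher at 5 days. No member was lower. A member was called with limma at a Benjamini-Hochberg adjusted p below 0.05 over all genes and a log2 fold change beyond 0.58. By this rule 9.06% of all genes tested were called higher at 1 day, 12.4% at 2 days and 11.1% at 5 days. The median log2 fold change over the tested members was 1.78, 2.74 and 2.54 at the 3 times, beside 0.016, 0.031 and 0.025 over all genes tested. Of these members 2, 5 and 3 had a saline mean below 5 and passed the filter through their NDMA mice, so a rise was built into the medians and the counts.

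**Figure D1:**
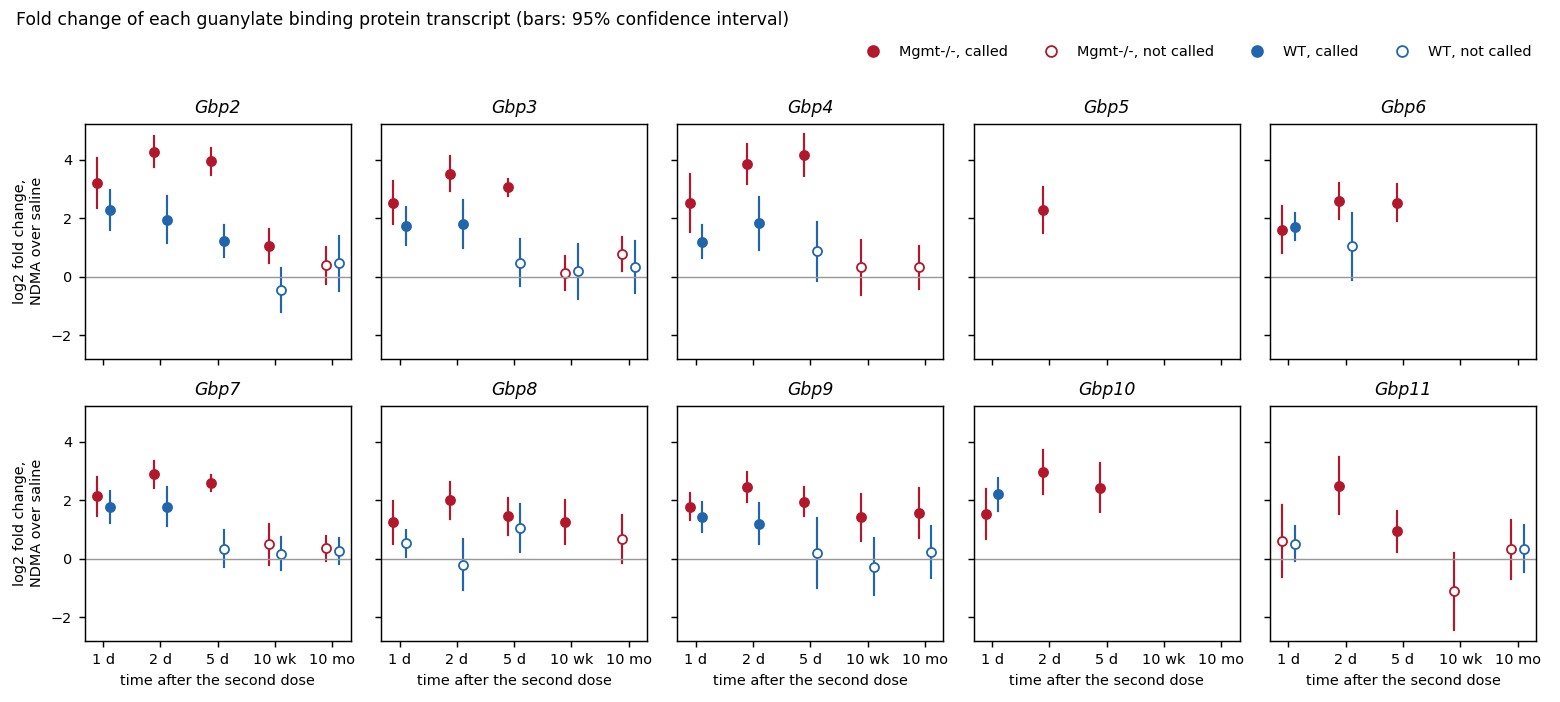
Log2 fold change of NDMA over saline (y axis) for each of the 10 members at 5 times after the second dose (x axis), in Mgmt-/- (red) and WT (blue) liver. Points are limma estimates with 95% confidence intervals, filled points passed the test, and a missing point means that the mean was below 5 normalized counts. The red points stand between 2.01 and 4.28 at 2 days, and the blue points end below 0.5 at 10 weeks and 10 months.

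Gbp2, a member that reaches bacterial and parasite membranes, had the largest log2 fold change among the members at 2 days. In Mgmt-/- saline mice of day 2 its level ran from 14.6 to 27.1 normalized counts with a median of 18.5. In NDMA mice it ran from 205.5 to 781, with a median of 349.8. All 8 NDMA mice stood above the highest saline mouse, and the log2 fold change was 4.28 ± 0.25 (SE; limma adjusted p = 6.85e-10), or 19.4-fold. At 5 days the 8 NDMA mice lay between 259.5 and 532.5 and the 6 saline mice between 10.0 and 34.9, again without overlap, with a log2 fold change of 3.96 ± 0.22. In bulk liver, more cells of a type and more RNA per cell cannot be told apart.

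Gbp3 and Gbp7, members of the chromosome 3 cluster, also separated the groups fully at 2 and 5 days. Gbp3 had a median of 19.1 normalized counts (7.2 to 33.7) in saline and 201.2 (142.9 to 353.1) in NDMA mice at 2 days, a log2 fold change of 3.52 ± 0.28. Gbp7 had a median of 49.9 (31.5 to 75.6) in saline and 382.9 (245.4 to 699) in NDMA mice, a log2 fold change of 2.89 ± 0.22. Its lowest NDMA mouse was thus above its highest saline mouse. Gbp5, a member known for its part in inflammasome assembly, was the least detected. It passed limma's filter only at 2 days, with a median of 0.859 (0 to 2.54) in saline and 8.18 (6.38 to 14.0) in NDMA mice, a log2 fold change of 2.30 ± 0.38 (adjusted p by limma = 4.19e-05). It passed through the NDMA group, so a difference was built into the filter. At 1 and 5 days limma's filter left it out, with NDMA medians of 7.70 and 7.52. edgeR, whose filter on reads kept it at 1 day, called it there (2.52 ± 0.45, edgeR adjusted p = 3.74e-05).

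On chromosome 5, Gbp4 had the largest log2 fold change at 5 days. Its level was 2.08 (median, 0 to 5.47) in the 6 saline mice and 48.7 (38.1 to 105.6) in the 8 NDMA mice, a log2 fold change of 4.17 ± 0.34 (adjusted p by limma = 3.80e-09). Gbp9 had a smaller fold change with equally clear separation. Its level was 11.2 (5.14 to 18.3) in saline and 55.6 (32.9 to 84.9) in NDMA mice at 2 days, a log2 fold change of 2.45 ± 0.25. At 1 day Gbp9 was the only tested member whose groups did not overlap, with 12 saline mice between 1.53 and 16.7 and 12 NDMA mice between 18.5 and 73.6, where 0.776% of all genes tested had every NDMA mouse above every saline mouse. Gbp4 had saline means below 5 at 2 and 5 days and passed the filter there through its NDMA mice.

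Gbp8, Gbp6 and Gbp10 were called higher at each of the first 3 times, although Gbp6 and Gbp10 passed the filter through their NDMA mice (saline means below 5 normalized counts), so that a difference was built into their being tested. The log2 fold change of Gbp8 was 1.25 ± 0.36, 2.01 ± 0.31 and 1.46 ± 0.31 at 1, 2 and 5 days. That of Gbp6 was 1.61 ± 0.40, 2.59 ± 0.31 and 2.54 ± 0.30. That of Gbp10, which shares most of its 3' end with Gbp6, was 1.55 ± 0.42, 2.97 ± 0.36 and 2.44 ± 0.41. Gbp11 was the tested member not called at 1 day. Its NDMA mice ran from 0 to 28.3 (median 18.8), none above the highest saline mouse (1.26 to 48.3, median 5.56), and the difference was 0.61 ± 0.59 on the log2 scale (limma adjusted p = 0.503). A batch here is the set of libraries that share the entry deposited under the name Run. Within batch 191212Eng Gbp11 was called (1.64 ± 0.27, limma adjusted p = 4.69e-05), and within batch 200803Eng, with 4 mice a group and the highest saline mouse, it was not (-1.45 ± 1.26, limma adjusted p = 0.621). At 2 days Gbp11 was called (2.50 ± 0.47), but its saline mean was 2.61 normalized counts and it passed the filter through its NDMA mice. At 5 days limma called it (0.94 ± 0.34, limma adjusted p = 0.047) and edgeR did not (0.95 ± 0.37, edgeR adjusted p = 0.065).

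At 9 of 10 members, all NDMA mice stood above all saline mice at 2 days, as they did for 6.19% of all genes tested. At 5 days this held for 7 of the 9 tested members and 6% of all genes, with Gbp8 and Gbp11 as the exceptions. These counts include members that passed the filter through their NDMA mice.

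**Figure D2:**
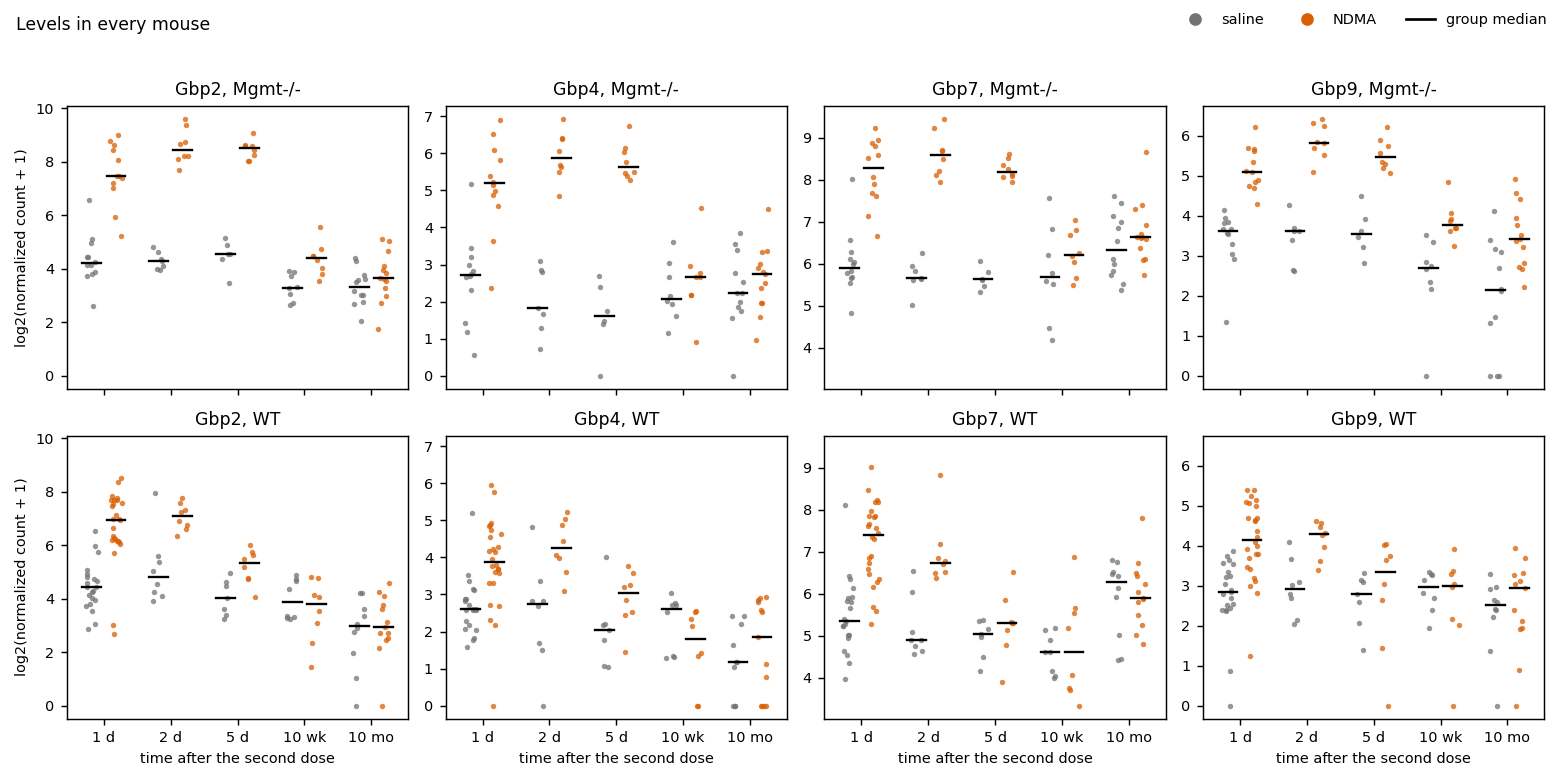
Level of Gbp2, Gbp4, Gbp7 and Gbp9 in every mouse, as log2(normalized count + 1) on the y axis, at 5 times after the second dose on the x axis; grey points are saline mice, orange points NDMA mice and black lines group medians, with Mgmt-/- liver above and WT liver below. In Mgmt-/- liver the orange points stand clear of the grey points at 2 and 5 days and overlap them at 10 months.

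At 10 weeks 3 of 7 tested members were higher in Mgmt-/- liver (7.27% of all genes were called higher), and at 10 months 1 of 7 was (4.75% of all genes). The median log2 fold change over the tested members was 0.50 and 0.39, beside 0.040 and -0.006 over all genes. Gbp4 at 10 weeks (saline mean 4.55) and Gbp9 at 10 months (saline mean 4.74) passed the filter through their NDMA mice, and both enter these values. The members called at 10 weeks were Gbp2, Gbp8 and Gbp9. Gbp2 had a median of 8.78 (5.22 to 14.0) in saline and 20.0 (10.6 to 46.0) in NDMA mice, a log2 fold change of 1.05 ± 0.28 (adjusted p by limma = 0.015). Gbp8 rose by 1.26 ± 0.36 on the log2 scale (limma adjusted p = 0.022), from a median of 5.33 to 13.7. Gbp9 rose by 1.42 ± 0.39 on the log2 scale (limma adjusted p = 0.017), from a median of 5.50 to 12.7. Of the 8 NDMA mice, 6 stood above every saline mouse for Gbp2 and Gbp8 and 7 did for Gbp9, so the groups overlapped in each case.

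Gbp9 was also the member called at 10 months, and the only one called at all 5 times in Mgmt-/- liver. Its level there was 3.43 (median, 0 to 16.4) in saline and 9.67 (3.62 to 29.0) in NDMA mice. The groups overlapped, with 3 of 13 NDMA mice above every saline mouse, and the log2 fold change was 1.56 ± 0.42 (limma adjusted p = 0.015). DESeq2 also called Gbp9 at 10 months, and the edgeR filter kept only Gbp2, Gbp3 and Gbp7, so Gbp9 was not tested there. Its saline mean was below 5, so Gbp9 passed the limma filter through its NDMA mice. The saline level of Gbp9 was itself lower at 10 months than at 1 day, by a log2 fold change of -1.10 ± 0.39 (adjusted p by limma = 0.012).

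Gbp3, Gbp4 and Gbp7 were not called at 10 weeks or 10 months. Gbp3 had a median of 21.1 in saline and 21.7 in NDMA mice (log2 fold change 0.13 ± 0.28), and the values of the 8 NDMA mice overlapped those of the saline mice except for 1 mouse. For Gbp4 the log2 fold change was 0.33 ± 0.46 and for Gbp7 it was 0.50 ± 0.34, neither past the threshold. Gbp11 had a log2 fold change of -1.11 ± 0.64 at 10 weeks (adjusted p by limma = 0.301) and 0.33 ± 0.50 at 10 months (adjusted p by limma = 0.737). At 10 months Gbp3 was 0.79 ± 0.28 above saline on the log2 scale (limma adjusted p = 0.073). Gbp5, Gbp6 and Gbp10 fell below the filter at both later times.

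The change of the response between consecutive times was then tested directly, in 1 fit over all Mgmt-/- libraries. From 5 days to 10 weeks the response fell in 5 of the 9 members tested, where 3.54% of all genes changed in either direction. The log2 response dropped by 3.84 ± 0.69 for Gbp4, by 2.93 ± 0.55 for Gbp3, by 2.91 ± 0.54 for Gbp2, by 2.35 ± 0.71 for Gbp10 and by 2.09 ± 0.49 for Gbp7. The saline means of Gbp10 lay below 5 at all 5 times, and it passed the filter of this fit through its early NDMA mice, so a high early response and a later drop were built into its being tested. For Gbp8 and Gbp9 the estimates were -0.21 ± 0.66 and -0.54 ± 0.57, which did not pass the test. Whether these estimates differ from those of Gbp3 or Gbp4 was not tested.

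No member passed the test for the other steps. From 1 to 2 days all 9 estimates in Mgmt-/- liver were above 0 (0.68 to 1.95), and 5 had an unadjusted p below 0.05, but none passed with limma's adjusted p, where 0.0198% of all genes did. From 2 to 5 days no member had an unadjusted p below 0.05 (0.00991% of all genes were called), and from 10 weeks to 10 months none did either (1.06% called). All libraries of days 2 and 5 belonged to batch 191212Eng and all of week 10 and month 10 to batch 200803Eng, so batch and time cannot be told apart in the step from 5 days to 10 weeks.

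In WT liver members were higher at the early times and none was called at the late times. At 1 day 7 of 9 tested members were higher (5.01% of all genes called higher), at 2 days 5 of 7 (3.33%) and at 5 days 1 of 6 (2.22%). At 10 weeks none of 4 was called (0.0249%) and at 10 months none of 5 (0%). At both late times edgeR (3 and 4 members tested) and DESeq2 also called 0 members, and 0 members had an unadjusted limma p below 0.05. The median log2 fold change of the tested members was 1.72, 1.78, 0.68, -0.04 and 0.34 over the 5 times, beside -0.025, -0.076, -0.073, -0.035 and -0.060 over all genes. Of these members 2, 1, 2, 0 and 1 passed the filter through their NDMA mice.

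At 1 day Gbp2 had a median of 20.5 (6.21 to 91.3) in the 21 WT saline mice and 122.7 (5.43 to 364.1) in the 26 NDMA mice, a log2 fold change of 2.28 ± 0.34 (adjusted p by limma = 1.42e-06). The lowest NDMA mouse lay below the lowest saline mouse, while 15 of 26 NDMA mice lay above the highest saline mouse. Gbp10, Gbp7, Gbp3, Gbp6, Gbp9 and Gbp4 had log2 fold changes of 2.21, 1.77, 1.73, 1.72, 1.42 and 1.21, of which Gbp10 and Gbp6 had saline means of 1.16 and 3.09 normalized counts and passed the filter through their NDMA mice. Gbp8 (0.53 ± 0.23, limma adjusted p = 0.096) and Gbp11 (0.52 ± 0.30, limma adjusted p = 0.230) were not called. With edgeR, Gbp8 was called at 1 day in WT liver (0.74 ± 0.25, edgeR adjusted p = 0.028). limma called it at none of the 3 times it tested there.

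At 2 days the called WT members were Gbp2, Gbp4, Gbp3, Gbp7 and Gbp9, with log2 fold changes of 1.96, 1.83, 1.80, 1.78 and 1.21. edgeR called 4 of these 5 and not Gbp2 (1.67 ± 0.57, edgeR adjusted p = 0.089). None of the 5 separated the groups fully, while 0.373% of all genes had every NDMA mouse above every saline mouse. One saline mouse held Gbp2 at 243.4 normalized counts, above every NDMA mouse (79.1 to 215), and it was also the highest of the 8 saline mice for Gbp3 (166.1), Gbp4 (27.0) and Gbp7 (92.7). At 5 days only Gbp2 was called, with a median of 15.1 (8.48 to 30.2) in saline and 39.6 (15.6 to 63.7) in NDMA mice, a log2 fold change of 1.22 ± 0.26 (adjusted p by limma = 0.013). Without covariates this call was lost and 0 members were called. In WT liver no member passed the test for a change of response between consecutive times, with unadjusted p below 0.05 for 1, 3, 3 and 0 of 8 members in the 4 steps and 1.76%, 0.022%, 1.01% and 0% of all genes called.

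The genotypes were compared by the genotype by treatment term, the difference of the Mgmt-/- and WT log2 responses in 1 edgeR quasi-likelihood fit of recovered reads. At 1 day no member differed by this term, none of 10 had an unadjusted p below 0.05, and limma called 0 (0.00944% of all genes were called). The fit left out 1 Mgmt-/- NDMA library without whole reads. Within batch 191212Eng, which held all 4 groups, 0 members were called as well (2 and 5 genes of 10338 were higher and lower), an alternative chosen after the data were seen. At 2 days, with 5 of the 8 WT saline libraries in the fit, the response of 3 of 10 members was larger in Mgmt-/- liver (4.02% of all genes called in either direction). The differences were 2.76 ± 0.64 for Gbp2 (edgeR adjusted p = 0.016), 2.33 ± 0.62 for Gbp4 (edgeR adjusted p = 0.026) and 2.15 ± 0.59 for Gbp8 (edgeR adjusted p = 0.028) on the log2 scale. Gbp5, tested and not called, had a mean of 8.97 normalized counts in Mgmt-/- NDMA mice and below 5 in the other groups. A larger response in Mgmt-/- liver was thus built into its being tested.

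At 5 days the response of 4 of 9 members was larger in Mgmt-/- liver (2.42% of all genes called). The difference was 3.28 ± 0.65 for Gbp4, 2.56 ± 0.33 for Gbp2, 2.31 ± 0.32 for Gbp3 and 2.24 ± 0.29 for Gbp7, with edgeR adjusted p values of 0.00154, 2.50e-06, 5.93e-06 and 2.50e-06. All 9 estimates were above 0. Gbp6 and Gbp10 had means of 15.4 and 13.1 normalized counts in Mgmt-/- NDMA mice and below 5 in the other groups. They were tested through the group where they were high, so a positive estimate was built in for them. At 10 weeks only Gbp2 of 3 tested members differed (1.72 ± 0.46, edgeR adjusted p = 0.015; 6.8% of all genes called), and without covariates the call of Gbp2 was lost. limma, which tested 6 members there, did not call Gbp2 (adjusted p = 0.052) and called 1 other member. At 10 months 0 of 6 members differed, 0 had an unadjusted p below 0.05 and limma called 0 (1.52% of all genes called). At 2 and 5 days and 10 weeks the genotypes shared no batch, and an effect of genotype cannot be told apart from one of batch.

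Batch, the Run entry of each library, moved with the size of the response at 1 day. In Mgmt-/- liver Gbp2 had a log2 fold change of 3.70 ± 0.26 in batch 191212Eng (8 against 8 mice) and 2.23 ± 0.88 in batch 200803Eng (4 against 4 mice). Gbp4 had 3.41 ± 0.33 and 0.77 ± 0.82, and Gbp11 had 1.64 ± 0.27 and -1.45 ± 1.26 in the same batches. Gbp9 had 1.88 ± 0.23 and 1.58 ± 0.50. In batch 191212Eng 9 members were called (9.33% of all genes called higher) and in batch 200803Eng 0 were (2.64%). A single male saline mouse of batch 200803Eng held Gbp2 at 94.8, Gbp3 at 87.4, Gbp7 at 258.5 and Gbp11 at 48.3 normalized counts, the highest values among the 12 saline mice for each.

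The same batch gave the smallest Gbp2 response in WT liver at 1 day. Gbp2 had a log2 fold change of 3.10 ± 0.32 in batch 191212Eng, 2.74 ± 0.33 in batch 210901Eng and -0.08 ± 0.96 in batch 200803Eng (6 against 4 mice). In batch 200803Eng the highest WT saline value of Gbp2 was 91.3 normalized counts, and the medians were 27.9 in saline and 59.8 in NDMA mice. The number of members called was 7, 7 and 0 in the 3 batches, beside 5.44%, 6.36% and 0% of all genes. Batch 200803Eng also held all week 10 and month 10 libraries of Mgmt-/- mice. There the log2 response of Gbp3 was 1.55 ± 0.76 at 1 day and 0.13 ± 0.28 at 10 weeks, and that of Gbp2 was 2.23 ± 0.88 and 1.05 ± 0.28. For WT mice of days 2 and 5, batch 200710Eng held the males and batch 200724Eng the females, and members were called in the first (4 and 1, beside 5.28% and 7.98% of all genes) and not in the second (0 and 0, beside 0% and 0%).

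**Figure D3:**
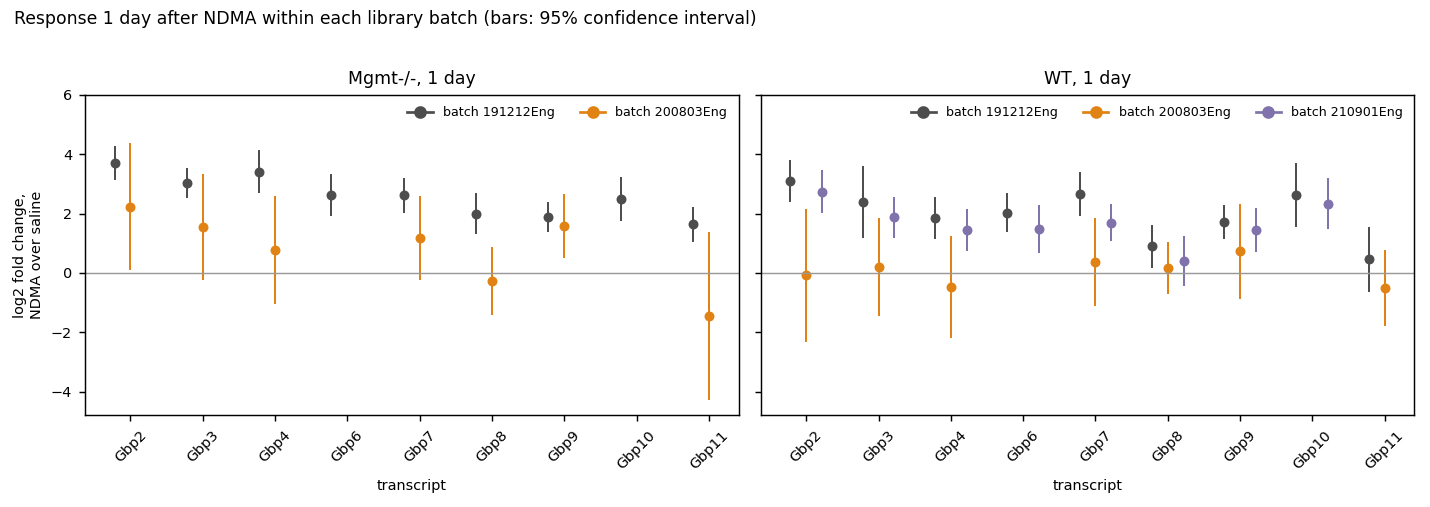
Log2 fold change of NDMA over saline (y axis) 1 day after the second dose for each tested member (x axis), fitted within each library batch, in Mgmt-/- (left) and WT (right) liver; points are limma estimates and bars 95% confidence intervals. Batch 200803Eng, with 4 to 6 mice per group, has the widest bars, and its Gbp2 estimate is the lowest in both genotypes.

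The IRGs, the other GTPase family of the same pathway, moved in the same direction. All 7 IRGs tested were higher in Mgmt-/- liver at 1 day, all 7 at 2 days and all 6 tested at 5 days, then 1 of 5 at 10 weeks and 2 of 5 at 10 months. In WT liver the numbers were 6 of 6, 6 of 6, 1 of 5, 0 of 5 and 0 of 5. Of all genes tested, 9.06%, 12.4%, 11.1%, 7.27% and 4.75% were called higher in Mgmt-/- liver over the 5 times. In WT liver 5.01%, 3.33%, 2.22%, 0.0249% and 0% were. The filter used NDMA and saline mice together, so IRGs low in saline could be tested through their NDMA mice. Igtp, an IRG that guards host membranes, had a median of 119.1 normalized counts in saline and 841.7 in NDMA Mgmt-/- mice at 2 days, a log2 fold change of 2.89 ± 0.15. Gm12250, another IRG, was the one called at both late times in Mgmt-/- liver, with log2 fold changes of 1.25 ± 0.34 and 1.39 ± 0.38, and Irgm1 was the second at 10 months (0.76 ± 0.22). The median log2 fold change of the tested IRGs in Mgmt-/- liver was 1.60, 2.34, 2.29, 0.59 and 0.70 over the 5 times. Over all genes tested it was 0.016, 0.031, 0.025, 0.040 and -0.006.

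Genes of interferon signalling itself were partly higher. In Mgmt-/- liver 9.06%, 12.4% and 11.1% of all genes tested were called higher at 1, 2 and 5 days. Of 14 genes of this list tested, 5 were higher at 1 and 2 days in Mgmt-/- liver and 6 of 15 at 5 days, with none lower. Irf9, Irf1, Irf8 and Usp18 were among those higher at all 3 times, and Batf2 joined at 5 days. Irf1 had a log2 fold change of 0.99 ± 0.19, 1.88 ± 0.17 and 1.56 ± 0.16 at these times. Usp18, which restrains type I interferon receptors, was called at all 5 times, with 1.37 ± 0.24 at 10 weeks and 1.16 ± 0.28 at 10 months. Irf8 was also called at both late times, Ifngr1 at 10 weeks and Irf9 at 10 months (7.27% and 4.75% of all genes called higher). In WT liver 5 of 14 were higher at 1 day, 2 of 13 at 2 days with Ifngr1 lower, and none at the later times. Of all genes in WT liver, 5.01% were called higher at 1 day and 3.33% at 2 days. Ifng, the type II interferon ligand, was too low to test. In Mgmt-/- liver its median was 0 in saline mice and 1.28 and 1.05 normalized counts in NDMA mice at 2 and 5 days, with a highest value of 4.89.

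Of the inflammasome and pyroptosis genes, Casp1 and Casp4 were the ones called at the late times in Mgmt-/- liver. Of all genes there, 9.06%, 12.4%, 11.1%, 7.27% and 4.75% were called higher over the 5 times. Casp1, the inflammasome caspase, had a log2 fold change of 1.11 ± 0.24, 1.92 ± 0.20, 1.86 ± 0.25, 1.3 ± 0.26 and 3.25 ± 0.37 over the 5 times. At 10 months its 13 NDMA mice (lowest 10.5) stood above all 12 saline mice (highest 9.53). The share of all genes separated in this way was not counted at 10 months. With saline levels this low, a rise may be built in by the filter, which used both groups together. Casp4, which senses bacterial lipopolysaccharide, was called at 10 weeks (2.56 ± 0.38) and 10 months (2.14 ± 0.37) and at none of the first 3 times. Pycard, the adaptor of inflammasomes, was higher at 1, 2 and 5 days and Gsdmd, the pore former, at 1 and 2 days, while Il18 was lower at 1 day (-0.85 ± 0.18). In WT liver Casp1 and Gsdmd were higher at 1 day (5.01% of all genes called higher), and none of the list was called later.

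The ATG8 conjugation genes did not rise in any of the 10 comparisons. Atg10 was lower in Mgmt-/- liver at 1 day, Atg3 and Gabarapl1 at 2 days and Atg3 at 10 weeks (-0.73 ± 0.17), and in WT liver Atg16l1 was lower at 1 day. All 11 genes of this list were tested each time.

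**Figure D4:**
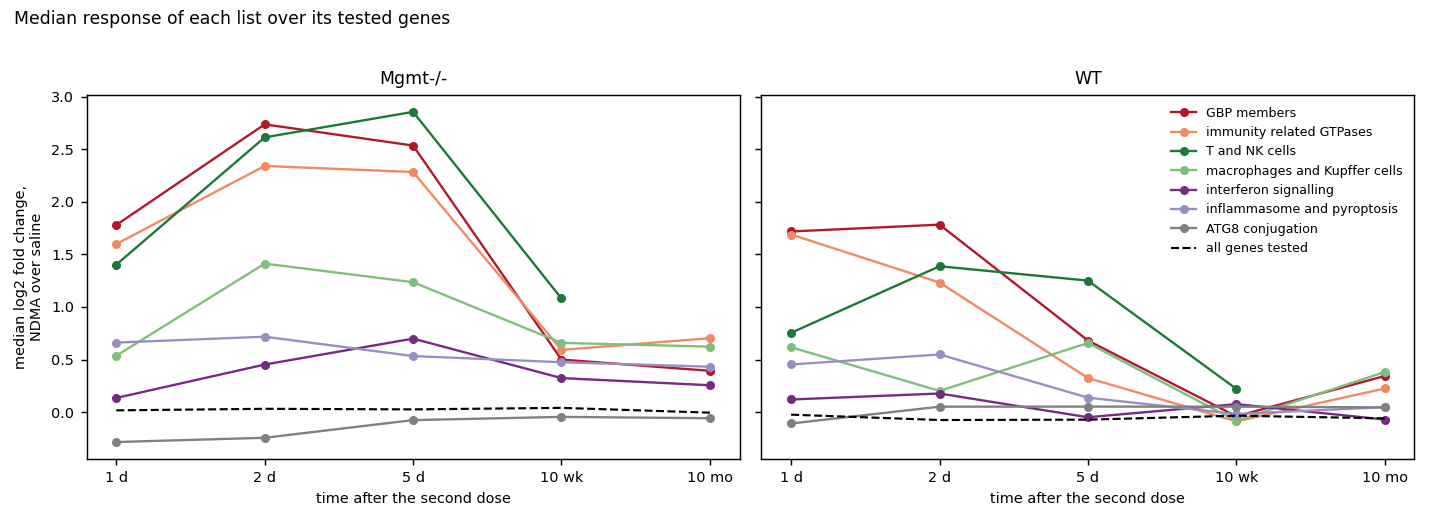
Median log2 fold change of NDMA over saline (y axis) over the tested genes of the GBP members, 4 pathway lists and 2 cell type marker lists at 5 times after the second dose (x axis), in Mgmt-/- (left) and WT (right) liver; the dashed line is the median over all genes tested. The GBP members, the IRGs and the T and NK cell markers peak at 2 or 5 days in Mgmt-/- liver, and no T and NK cell marker could be tested at 10 months.

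Markers of several cell types were called in these comparisons. Of all genes tested, 9.06%, 12.4%, 11.1%, 7.27% and 4.75% were called higher in Mgmt-/- liver over the 5 times. In WT liver 5.01%, 3.33%, 2.22%, 0.0249% and 0% were. The filter used NDMA and saline mice together. A marker low in saline could thus be tested through its NDMA mice, and a rise was then built into its being tested. Of 2 B and plasma cell markers tested at each time in Mgmt-/- liver, Cd79b was lower at 1 day, Jchain was higher at 10 weeks and 0 were called at the other times. Of 12 T and NK cell markers, 11 of them listed, 6 of 7 tested were higher at 1 day, 7 of 7 at 2 days, 7 of 7 at 5 days and 1 of 5 at 10 weeks in Mgmt-/- liver. Summed over the list, the level was 69.7 normalized counts (median, 40.1 to 76.2) in saline and 399.6 (216.8 to 532.9) in NDMA mice at 2 days, with Gzma as the most abundant marker. Of 11 macrophage and Kupffer cell markers, 3 were higher and 3 lower at 1 day, 8 higher at 2 days, 7 at 5 days, 6 at 10 weeks and 3 at 10 months in Mgmt-/- liver. In WT liver 6 were higher and 1 lower at 1 day, 3 higher and 2 lower at 2 days, 2 higher at 5 days and 0 of 10 tested were called at each later time. In Mgmt-/- mice their summed level at 2 days was 1100 (median, 826.1 to 1450) in saline and 2486 (1977 to 5605) in NDMA mice, led by Lyz2. No marker of either list was at 0 in all mice of these groups.

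Of 5 hepatocyte markers, 3 were lower in Mgmt-/- liver at 1 and 2 days and 1 at 5 days and 10 weeks, and at 10 months none was lower and Apoa1 was higher. In WT liver Alb was lower at 2 days and no hepatocyte marker was called at the other times. Of 6 endothelial cell markers, Lyve1 was higher at every time in Mgmt-/- liver. Stab2 was lower at 1, 2 and 5 days, Clec4g at 1 and 5 days and Kdr at 1 day, while Pecam1 was higher at 2 days and Cdh5 at 5 days. In WT liver Stab2 was lower at 1 day and no other endothelial marker was called. The summed level of the hepatocyte markers in Mgmt-/- liver at 2 days was 362800 (median, 318800 to 402600) in saline and 241100 (199600 to 266100) in NDMA mice, with Alb, Ttr and Serpina1c lower. In WT liver the T and NK cell markers had 5 of 6 higher at 1 day, 4 of 7 at 2 days, 3 of 6 at 5 days and 0 of 2 at 10 weeks, where Cd3e and Ncr1 were at 0 in all NDMA mice. Neutrophil markers did not rise early in Mgmt-/- liver: S100a9 was lower at 1 and 2 days, and S100a8 and S100a9 were lower at 5 days, out of 2 tested each time. None of the 5 kidney markers reached the filter in any comparison. The part of these cells in the GBP levels was not tested.

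Saline mice gave the background of the family at each age. Between 1 day and 10 months, 54.5% of all genes in Mgmt-/- saline liver and 50.2% in WT saline liver were called in either direction, so a change with age was common. Among the 9 Mgmt-/- members tested only Gbp9 was called. Among the 8 WT members tested Gbp8 (-1.78 ± 0.50) and Gbp4 (-1.40 ± 0.55) were lower at 10 months. Gbp6 was called higher (1.73 ± 0.52), although its medians were 2.43 and 2.57 normalized counts at 1 day and 10 months, and without covariates its estimate was 0.06 and not called.

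The sex by treatment term was called for 0 members in all 10 comparisons, with 0% of all genes called except in Mgmt-/- liver at 10 weeks (0.114%) and 10 months (0.338%). At an unadjusted limma p below 0.05 there were 2 members at 10 weeks and 1 at 10 months in Mgmt-/- liver, 1 at each of these times in WT liver and 0 elsewhere. The smallest adjusted p was 0.161, for Gbp3 in Mgmt-/- liver at 10 months, where all 7 estimates were above 0. In WT liver at 2 and 5 days and 10 weeks the males were one batch and the females the other, so that the sex by treatment term was also a batch by treatment term.

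Members also varied together among mice of the same group. After centring each gene within its group of genotype, treatment and time, the pairwise correlation of log2 levels had a median of 0.508 over the 36 member pairs of the 94 Mgmt-/- libraries (0.232 to 0.651). Over the 28 pairs of the 117 WT libraries it had a median of 0.361 (-0.068 to 0.686). Among the 8 genes most like the mean of the members in Mgmt-/- liver were Igtp (r = 0.859), Gm12250 (0.835), Iigp1 (0.828), Irf1 (0.737), Herc6 (0.727), Gbp2b (0.685) and Ifi47 (0.684), ranked over 10094 genes. In WT liver they were Iigp1 (0.858), Igtp (0.776), Gm12250 (0.709), Ifi47 (0.686), Ifit1 (0.677), Zbp1 (0.652), H2-DMb1 (0.617) and Gbp2b (0.617). These are descriptions over libraries that share batches and differ in depth.

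Gbp2b, a further GBP gene between Gbp3 and Gbp2 on chromosome 3, was not among the 10 members. It was higher in Mgmt-/- liver at 2 days (3.52 ± 0.35), where it passed the filter through its NDMA mice, and at 5 days (3.41 ± 0.33), and its response dropped by 4.61 ± 0.83 from 5 days to 10 weeks. In WT liver it was higher at 1 day (1.34 ± 0.26), again passing through its NDMA mice. Mgmt itself was higher after NDMA in WT liver at 1 day (0.85 ± 0.15), 2 days (1.36 ± 0.31) and 5 days (1.25 ± 0.27), and its centred levels correlated with those of Gbp3 at r = 0.278 over the 117 libraries.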

How the data were processed

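Per the labels and the study's methods, 3' digital gene expression libraries of liver RNA were aligned to the mouse genome (GRCm38/mm10) with STAR, reads were assigned to genes with ESAT, and counts were divided by DESeq2 size factors. The deposited tables, one per genotype, hold this size-factor normalized signal, so levels were tested within a table. The exception was the limma alternative for the genotype by treatment term, which used values of both separately normalized tables. Whole reads were recovered from 209 of 213 columns (100% of values within 0.01 of a whole read), and edgeR and DESeq2 used these reads. The other 4 columns (1 of Mgmt-/- NDMA day 1 and 3 of WT day 2) were left out of count fits. Treatment was tested with limma 3.58.1 (trend, robust) on log2(value + 1), adjusting for sex and for any batch not aliased with other terms, in genes with a mean of at least 5. Batch was the Run entry of each library. Fold changes on this scale understate changes of low genes. Response steps, age and sex terms used limma, and the genotype term edgeR 4.0.16 (TMM), with standard errors taken from its F statistic. The intervals and tests treat mice as independent. The fits were tested on simulated data. As an alternative, edgeR called 842, 1087, 912, 564 and 422 genes higher in Mgmt-/- liver over the 5 times and 576, 282, 281, 0 and 0 in WT liver, and DESeq2 1.42.0 (R 4.3.3) was another. All 10 members, Gbp2b, Mgmt, called or defining genes of the lists and the 8 most similar genes were named, except 1 gene that is not reported here. Members and lists were chosen with earlier results of these data known. Other alternatives changed the pseudocount, filter, scaling, covariates, batches and libraries. A library labelled Mgmt-/- saline month 10 had no column and was not analysed here.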

Additional observations from a re-analysis of the deposited data

Results flagged for a closer look

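Among 91 sets of 1 member in 1 group of 4 to 10 mice, a mouse stood apart from its group by Dixon's test 7 times, where chance gives about 1 in 20. In WT saline mice, Gbp2 was at 243.4 normalized counts in 1 mouse of day 2, with the others at or below 47.3, and Gbp4 was at 15.1 in 1 mouse of day 5. In WT NDMA mice of day 2, Gbp7 was at 452.3 in the library with the fewest reads (150038, where 1 read was worth 10.5 normalized counts), and Gbp6 was at 0 in another library. Gbp3 was at 0 in 1 WT saline mouse of week 10, and Gbp9 was at 0 in 1 Mgmt-/- saline mouse of week 10. Gbp6 was at 7.03 in 1 Mgmt-/- NDMA mouse of day 5, below the other 7. The mouse of day 2 with Gbp2 at 243.4 was also the highest of its group for Gbp3, Gbp4, Gbp5, Gbp6, Gbp7 and Gbp10.

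The response differed between genotypes (edgeR genotype by treatment term, log2) for Gbp2 (2.76), Gbp4 (2.33) and Gbp8 (2.15) at day 2, for Gbp2 (2.56), Gbp3 (2.31), Gbp4 (3.28) and Gbp7 (2.24) at day 5, and for Gbp2 (1.72) at week 10. The 2 Mgmt-/- saline libraries of day 5 that were not used held Kap at 6147 and 7562 normalized counts.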

How the results depend on the processing

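Over all alternatives, 223 of 241 counts of called members stayed within 1.5 times the value reported. A reported 0 that stayed 0 was included as unchanged, and the total includes the fits that left out 1 mouse. With a mean of at least 20 required, fewer members were tested, and 5, 5, 5, 0 and 0 were called in Mgmt-/- liver over the 5 times and 3 and 3 in WT liver at days 1 and 2. Of all genes under this filter, 551 of 5903, 721 of 5509, 634 of 5425, 414 of 5707 and 242 of 6304 were higher in Mgmt-/- liver. In WT liver at days 1 and 2, 230 of 4785 and 272 of 4502 were higher. Within batch 200803Eng at day 1, 0 members were called in either genotype, and the log2 fold change reversed for Gbp8 in Mgmt-/- liver (-0.27) and for Gbp2 (-0.084) and Gbp4 (-0.46) in WT liver. Gbp11, not called with all mice (0.61 and 0.52), was -1.45 in Mgmt-/- and -0.51 in WT liver there. In WT liver, DESeq2 called 3 members at day 2 (3 had an adjusted p), batch 200724Eng gave 0 at days 2 and 5, and at day 5 leaving out covariates gave 0 and leaving out the library under 300000 reads gave 2. edgeR called 0 at month 10 in Mgmt-/- liver, where its filter kept 3 members and not Gbp9, and DESeq2 called 1. Without covariates the genotype term at week 10 called 0 members, and the saline age comparison in Mgmt-/- liver called 2. Scaling every library to the same total moved the median log2 fold change of all genes to 0.203, 0.195, 0.172 and 0.241 in Mgmt-/- liver at days 1, 2 and 5 and week 10. Genes called higher and lower were then 1635 and 512, 1681 and 413, 1451 and 412, and 1162 and 177, against 911 and 869, 1170 and 710, 1037 and 624, and 704 and 376 as reported, and in WT liver at day 2 they were 384 and 181 against 285 and 249. The causes of the changed counts were not tested, except that the stricter filter tested fewer genes. Leaving out 1 mouse at a time gave 9 to 10, 8 to 9 and 2 to 3 members in Mgmt-/- liver at days 2 and 5 and week 10, and 4 to 5, 1 to 2 and 0 to 0 in WT liver. No paired analysis was possible because the labels give each library a number of its own that no other group shares. Low counts limited the family: limma's filter kept Gbp5 in 1 of 10 comparisons and edgeR's in 2.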

Other observations

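The 2 Mgmt-/- saline libraries of day 5 with kidney transcripts held Gbp2 at 9.51 and 7.08 normalized counts, Gbp3 at 7.39 and 18.0 and Gbp7 at 28.2 and 15.3. Gbp5, Gbp8, Gbp10 and Gbp11 were at 0 in both.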
